A study of Mus musculus with 2 samples.

Results

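A set of 10 genes of the type 2 immune pathway was followed through single cells of the injured mouse retina: the cytokines Il4, Il5 and Il13, the transcription factor Gata3, the alarmin Il33 with its receptor Il1rl1, the receptor subunits Il4ra, Il13ra1 and Il2rg, and the signal transducer Stat6. They were found by gene symbol, 10 of the 31053 genes counted. The genes were chosen by pathway, but also with the levels of Il13, Gata3 and Il1rl1 in a T cell cluster of these data already known, so those levels are given as description. The MSC-sEV library came from retinas of C57BL/6 mice aged 6 to 8 weeks that had an optic nerve injury and received the treatment the labels call MSC-sEV. The PBS library came from mice of the same strain and age with the same injury that received PBS, and both were taken at 2 weeks. Each library was 1 pool of 6 mice, and cells were enriched on magnetic beads for CD45, the surface marker of leukocytes. With 1 library per group there is no replicate, so no difference between MSC-sEV and PBS has a test, and every interval covers counting error only.

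Type 2 immunity is the branch of the immune system best known for defence against worms, for allergy and for tissue repair. IL-4 and IL-13 bind receptors that share the IL-4 receptor alpha chain, paired either with the common gamma chain (Il2rg) or with the IL-13 receptor alpha 1 chain (Il13ra1), and both receptors signal through STAT6. GATA3 is the transcription factor that sets up type 2 helper T cells and type 2 innate lymphoid cells, and IL-33, released from damaged tissue, activates these cells, mast cells and basophils through the receptor encoded by Il1rl1. In macrophages the same signals switch on genes of alternative activation.

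The 3 cytokine genes lie together on mouse chromosome 11 (GRCm38, the same build as mm10), where Il4 (53602982 to 53618669, minus strand), Il13 (53631324 to 53634702, minus strand), Rad50 and Il5 (53720794 to 53725106, plus strand) follow each other within 122125 bases. Il5 overlaps Gm12214 on the opposite strand. Their proximal promoters, the 250 bases before the start site from RefSeq (GRCm38.p6), are printed because GATA3 and STAT6 are known regulators of this locus, together with the distal promoter of Il1rl1, whose transcript marked some of the same cells. Each is written 5′ to 3′ on the strand of its gene. Capitals mark GATA on either strand (read as GATA or TATC) and TTC followed by GAA after 4 bases, the spacing typical of STAT6 binding, which reads the same on both strands. The windows are chr11:53618666-53618915 for Il4, chr11:53634703-53634952 for Il13, chr11:53720544-53720793 for Il5 and chr1:40429320-40429569 for Il1rl1.
Il4 promoter: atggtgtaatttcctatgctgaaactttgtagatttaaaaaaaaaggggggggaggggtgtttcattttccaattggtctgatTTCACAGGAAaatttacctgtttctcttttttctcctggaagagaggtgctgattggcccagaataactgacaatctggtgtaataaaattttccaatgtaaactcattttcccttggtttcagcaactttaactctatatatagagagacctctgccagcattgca
Il13 promoter: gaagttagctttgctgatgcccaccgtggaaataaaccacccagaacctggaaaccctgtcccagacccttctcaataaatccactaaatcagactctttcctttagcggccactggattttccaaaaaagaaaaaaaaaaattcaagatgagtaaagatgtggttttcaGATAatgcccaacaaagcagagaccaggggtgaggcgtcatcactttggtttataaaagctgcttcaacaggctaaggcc
Il5 promoter: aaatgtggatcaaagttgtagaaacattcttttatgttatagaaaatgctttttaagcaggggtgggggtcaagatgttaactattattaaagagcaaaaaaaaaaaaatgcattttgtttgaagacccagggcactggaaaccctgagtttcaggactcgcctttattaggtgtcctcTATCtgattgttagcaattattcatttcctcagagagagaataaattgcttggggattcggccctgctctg
Il1rl1 distal promoter: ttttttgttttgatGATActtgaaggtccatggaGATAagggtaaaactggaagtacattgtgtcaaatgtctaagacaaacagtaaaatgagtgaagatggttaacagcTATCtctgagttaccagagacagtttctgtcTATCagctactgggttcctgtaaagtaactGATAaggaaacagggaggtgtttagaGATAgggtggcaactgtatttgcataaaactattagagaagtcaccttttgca
The Il1rl1 window held 6 GATA matches, Il13 and Il5 held 1 each and the Il4 window shown held 0. RefSeq also lists a start of Il4 further inside the gene, whose window (chr11:53617339-53617588) held 3, and a second Il1rl1 start, whose window (chr1:40439379-40439628) held 2, so these counts depend on the start chosen. Of 32851 promoter windows of this length, 53.6% held at least 1 match and 0.338% held at least 6. The spaced TTC and GAA pair was found once in the Il4 window and in 5.85% of all windows. These matches describe letters, not binding.

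After filtering, 2319 MSC-sEV cells (median 2922 UMIs) and 1344 PBS cells (median 2596 UMIs) were analysed, with 0 barcodes shared between the libraries. A UMI is a tag of 1 captured RNA molecule. The labels name immune cells of the retina, but rod-like cells, the photoreceptors of dim light, made up 47.5% of MSC-sEV and 53.0% of PBS cells and are used here as the background of free RNA. Cells were clustered without the 10 genes and without the other pathway genes listed here. Monocyte or macrophage-like cells (154), T cell-like cells (105), cluster 8 (137) and cluster 11 (114) held MSC-sEV cells only, and the PBS library had 0 of 1344 cells in each. A cluster of 1 library may be that library and not a type. Cluster 8 met no marker list. Its leading genes were Retnlg, Ccr3, Alox15 and Cebpe, it held 6 of 10 neutrophil and 5 of 7 eosinophil markers, and Ly6g and Epx, defining genes of these cells, were at 0. Cluster 11 held markers of type 2 conventional and of migratory dendritic cells, and cluster 4 held 4 microglia markers, so both are named by number. The leading genes of the T cell-like class included Hist1h1b and Top2a of dividing cells beside Cd3g and Trbc1.

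**Figure D1:**
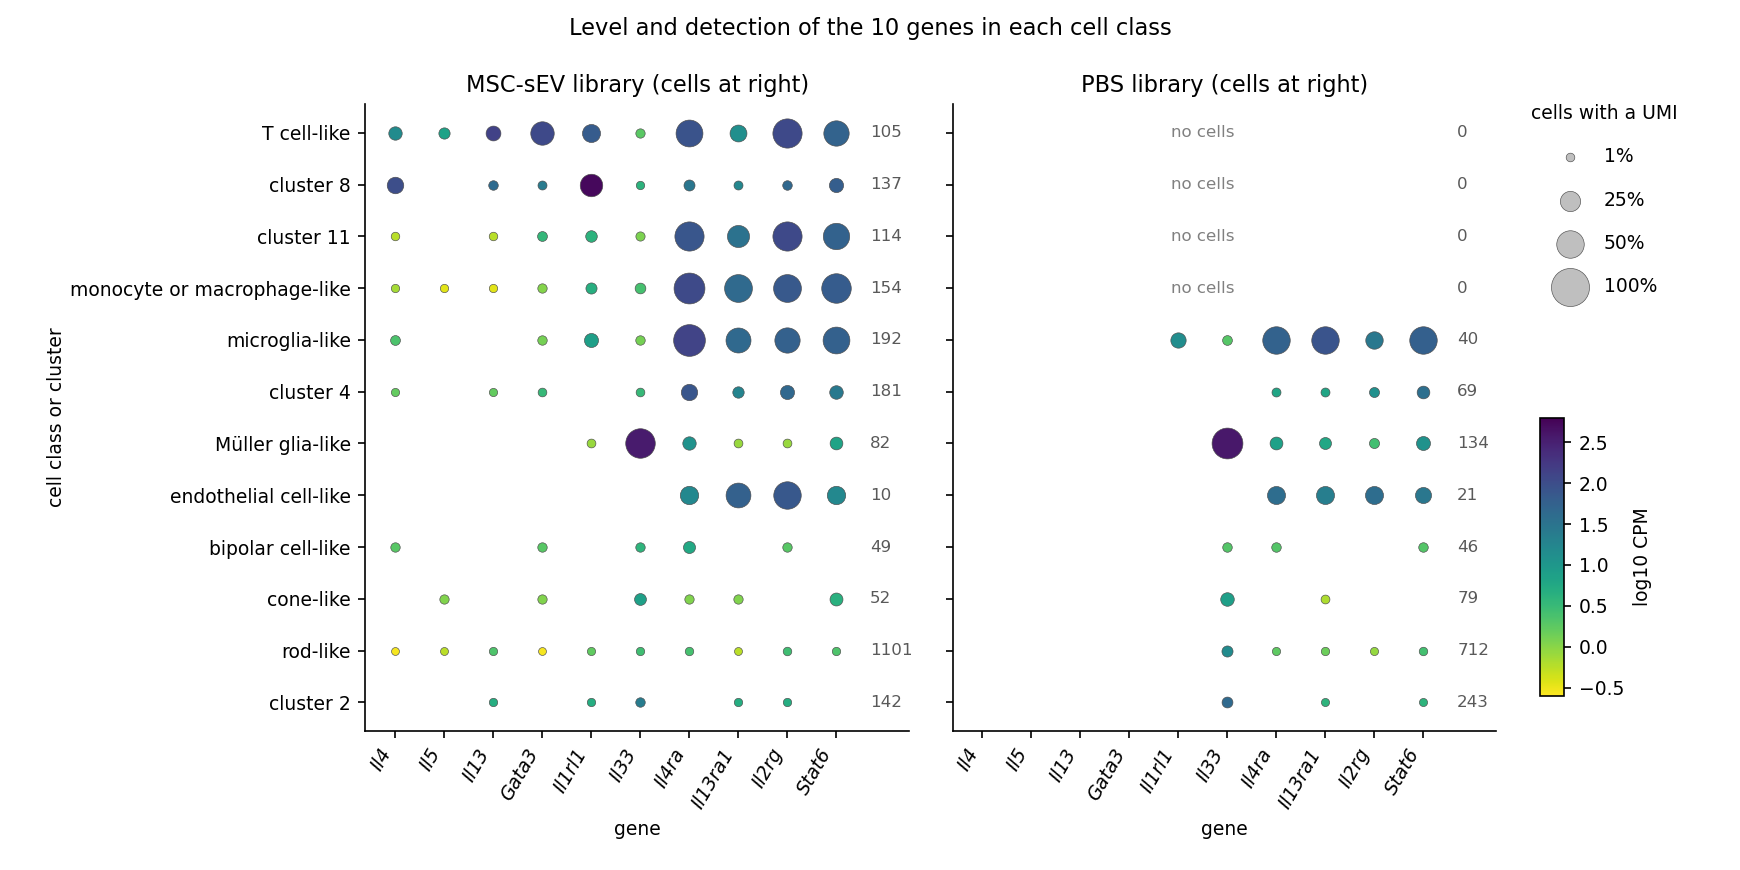
Each dot is 1 gene (x axis) in 1 cell class or cluster (y axis), in the MSC-sEV library (left) and the PBS library (right); colour gives log10 CPM (counts per 1e6 UMIs of the class) and a larger dot a higher percentage of cells with a UMI. Il4, Il5, Il13 and Gata3 have no dot in the PBS library, and Il33 is darkest in Müller glia-like cells of both libraries.

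The cytokines Il4, Il5 and Il13 were seen in the MSC-sEV library only. At least 1 UMI of any of them was found in 63 of 2319 MSC-sEV cells (2.72%, 2.09 to 3.46, exact Clopper-Pearson) and in 0 of 1344 PBS cells, where a count of 0 (floor of 3 counts) allows a share of cells with a UMI of up to 0.223%. Il4, which drives type 2 helper T cell fate and antibody class switching, had 61 UMIs in 40 MSC-sEV cells, against 0 in PBS. Il5, the growth factor of eosinophils, had 15 UMIs in 9 MSC-sEV cells, against 0 in PBS. Il13, the effector cytokine of mucus, fibrosis and macrophage activation, had 240 UMIs in 26 MSC-sEV cells, against 0 in PBS. Of the 6 listed neighbours at the locus, 5 were seen in both libraries and Slc22a4 in MSC-sEV only, with 5 UMIs. Detection in MSC-sEV only was not particular to the type 2 cytokines. Of 9 listed type 1 and type 17 genes, 6 were seen in MSC-sEV only and 0 in PBS only. The share of all genes seen in 1 library only was not taken. The DNA repair gene Rad50 had 840 UMIs in MSC-sEV and 238 in PBS. The kinesin gene Kif3a had 560 and 425, and Irf1 had 1403 and 106. These are raw counts from libraries of 16554098 UMIs in MSC-sEV and 8002574 in PBS, so their order is not adjusted for depth. Thinned to 1000 UMIs per cell, 1.11% of the 1983 MSC-sEV cells deep enough had a cytokine UMI, against 0 of 1016 PBS cells.

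The 63 cells lay mainly in a pair of clusters. Cluster 8 held 22 of them (16.1% of its cells), T cell-like cells 16 (15.2%), rod-like cells 10 (0.908%), microglia-like cells 5 (2.60%) and monocyte or macrophage-like cells 3 (1.95%). The share in rod-like cells is the level of background, at a median of 2583 UMIs per cell, against 1242 in cluster 8, 8012 in T cell-like, 14577 in microglia-like and 15899 in monocyte or macrophage-like cells. Both Il4 and Il13 were seen in 8 cells, Il5 and Il13 in 4, and all 3 cytokines in 3.

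**Figure D2:**
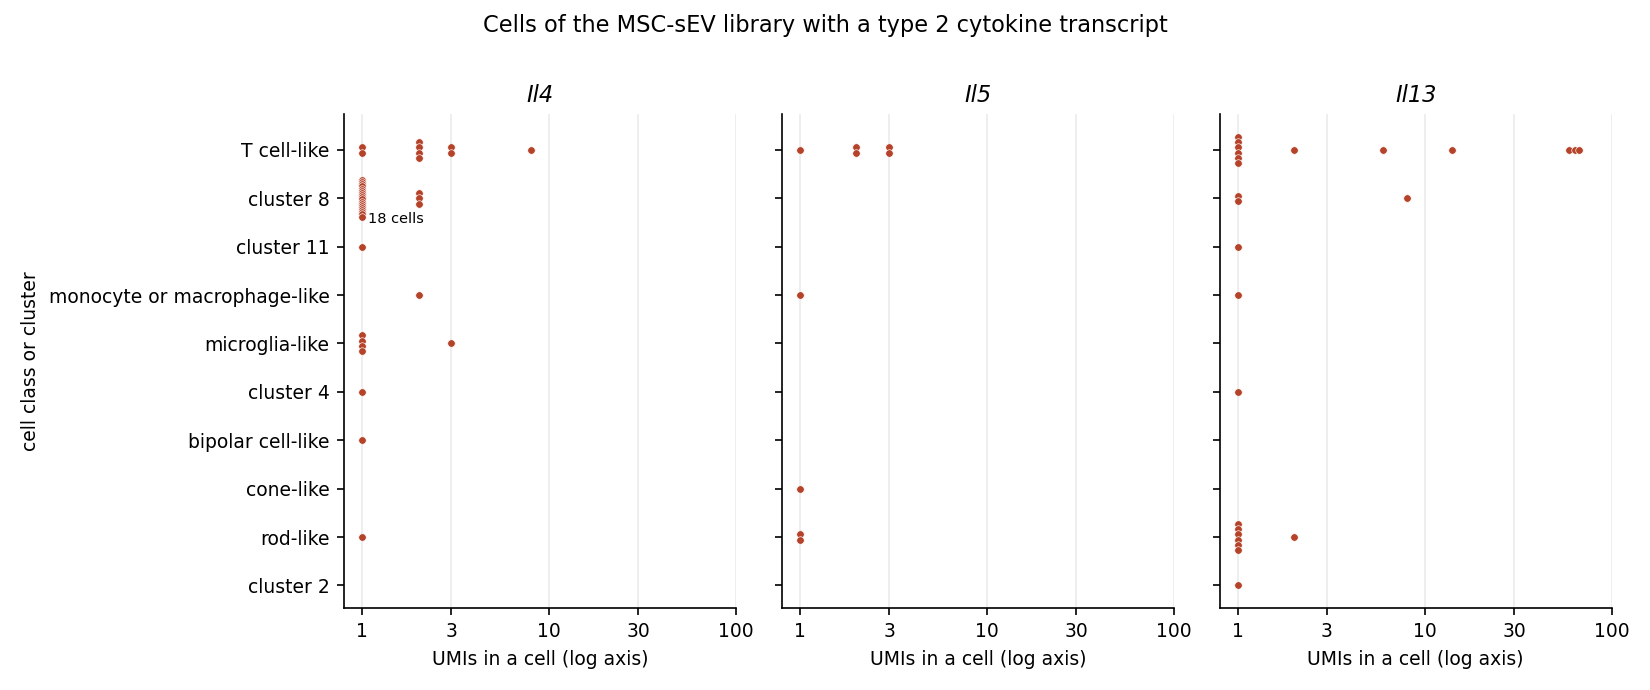
Each point is a cell of the MSC-sEV library with a UMI of Il4 (left), Il5 (middle) or Il13 (right); the x axis gives UMIs in that cell on a log scale and the y axis its class or cluster. A few T cell-like cells reach 59 to 67 UMIs of Il13, while Il4 is spread thinly over 21 cells of cluster 8.

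Il13 came almost wholly from T cell-like cells, and within them from few cells. These 105 cells held 218 of its 240 UMIs (90.8%, 86.5 to 94.2) at 136 CPM (119 to 156, exact Poisson), against 2.24 CPM in rod-like cells of the same library. A UMI was seen in 12 of them, or 11.4% (6.05 to 19.1). In rod-like cells the share was 0.636%. The 3 cells with the most Il13 held 67, 64 and 59 UMIs, together 79.2% of all, at depths of 43281, 17825 and 111151 UMIs. The next held 14, 6 and 2 UMIs, and 6 held 1 each. Leaving these 3 cells out, an alternative added once the data had been seen, T cell-like cells held 56% of the Il13 UMIs left. Without the 2% of cells with the highest doublet scores they held 91.2%.

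The Il13 cells of this class carried transcripts of T cells. The class was split, after seeing the data, into 61 cells with a UMI of a T cell receptor constant gene or a CD3 chain and 44 cells without. The 61 cells held 217 Il13, 20 Il4 and 11 Il5 UMIs, and the other 44 held 1, 4 and 0. All 10 microglia markers were seen in both subsets, with summed levels of 2491 CPM in the 61 cells and 6122 CPM in the 44, and the part of such transcripts in these counts was not tested. In the cells with 67 and 64 Il13 UMIs there were 242 and 126 T cell receptor UMIs, 28 and 22 Gata3 UMIs and 18 and 6 Il1rl1 UMIs. The third, with 59 Il13 UMIs, had 435 T cell receptor UMIs, 0 of Gata3, 17 of Ifng, the type 1 cytokine, and 62 of the division marker Mki67. Of the 11 Il13 cells among the 61, 10 had a UMI of the helper T cell coreceptor Cd4, 0 of the cytotoxic coreceptor Cd8a and 0 of Foxp3 of regulatory T cells. Il17a, the type 17 cytokine, was seen in 3 of these 11 cells. Cd4, Cd8a, Foxp3 and Mki67 were picked after their values were seen. Of the 8 markers of type 2 innate lymphoid cells, 7 were seen in the 61 cells, at a summed 540 CPM, and Ptgdr2 was at 0.

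Il4 was held mostly by T cell-like cells and cluster 8. Each held 24 of its 61 UMIs (39.3%, 27.1 to 52.7). This even split was not kept under other settings. The cluster 8 share was 85.7% after thinning. The T cell-like share was 26% without the 3 cells with the most Il13 and 0% after thinning. With cells classed by their marker score, eosinophil-like cells were counted in place of cluster 8 and held 19.7%. In cluster 8 the 24 Il4 UMIs lay in 21 of 137 cells (15.3%, 9.75 to 22.5) with at most 2 in a cell. The level there was 99.9 CPM (64.0 to 149). In T cell-like cells they lay in 9 of 105 cells (8.57%, 3.99 to 15.6) with up to 8 in a cell, at 15.0 CPM (9.62 to 22.3). Rod-like cells had 1 Il4 UMI in 1101 cells. Thinned to 1000 UMIs, Il4 was seen in 12.2% of the 90 deep enough cells of cluster 8, in 0 of 103 T cell-like cells and in 0.103% of rod-like cells.

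A handful of cells in cluster 8 carried mast cell and basophil transcripts. Cells with at least 3 of 14 markers of these types, a rule chosen after seeing the data, numbered 6 in the MSC-sEV library, 5 of them in cluster 8, and 0 in PBS. Cpa3, the carboxypeptidase of mast cell granules, had 170, 96, 72, 5, 0 and 0 UMIs in them, and Il1rl1 had 17, 19, 26, 2, 8 and 0. Il13 had 1, 8, 1, 0, 0 and 0 UMIs, which is all 10 Il13 UMIs of cluster 8, and Il4 had 2, 1, 0, 1, 0 and 0. The other cells of cluster 8 held Il4 as well. The 91 cells with a UMI of Ccr3, the eotaxin receptor of eosinophils, and under 3 such markers held 15 Il4 UMIs in 13 cells (114 CPM, 63.7 to 188), and 0 of Il13, Il5 and Gata3. The 41 cells with no Ccr3 UMI and under 3 such markers held 5 Il4 UMIs in 5 cells (92.9 CPM, 30.2 to 217).

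Gata3 was a gene of the T cell-like cells. It had 202 UMIs in 54 MSC-sEV cells, against 0 in PBS. T cell-like cells held 178 of these (88.1%, 82.8 to 92.2) at 111 CPM, in 37 of 105 cells (35.2%, 26.2 to 45.2). Of 1101 rod-like cells, 1 had a UMI. Of the 61 cells with a T cell receptor or CD3 transcript, 36 had a Gata3 UMI (59.0%, 45.7 to 71.4), and of the 44 without, 1. Among the 61, Gata3 was seen in 17 of 22 cells with Cd4 and 8 of 11 with Foxp3. It was also seen in 5 of 7 with Cd8a and 6 of 9 with Ifng, so it was not limited to cells with helper T cell transcripts. Cluster 8 held 6 Gata3 UMIs, 5 of them in 1 cell. Gene-level counts do not separate Gata3 from 9230102O04Rik, which overlaps it on the same strand.

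Il1rl1, whose transcripts encode both the membrane receptor of IL-33 and a soluble decoy that gene counts do not separate, was seen in 104 MSC-sEV cells with 286 UMIs, against 5 PBS cells with 7 UMIs. Cluster 8 held 128 of the MSC-sEV UMIs (44.8%, 38.9 to 50.7) in 44 of 137 cells (32.1%, 24.4 to 40.6), at 533 CPM. Its share was 66.0% after thinning to 1000 UMIs. With cells classed by their marker score, eosinophil-like cells were counted in place of cluster 8 and held 11.5% (8.08 to 15.8). That class leaves out cells scored as another type, so the share of UMIs depends on which cells are counted. T cell-like cells held 106 in 20 of 105 cells (19.0%, 12.04 to 27.9), at 66.3 CPM, and rod-like cells had 1.68 CPM. The cells with mast cell and basophil markers carried much of the cluster 8 signal, with 72 UMIs in the 6 cells at 970 CPM, 0 of them in the cell of cluster 11. The 91 Ccr3 cells without those markers held 38 at 288 CPM (204 to 396). All 106 UMIs of the T cell-like class were in the 61 cells with a T cell receptor or CD3 transcript. Gata3 and Il1rl1 were seen together in 17 T cell-like cells. In microglia-like cells, which carry the markers of retinal resident macrophages, Il1rl1 had 24 UMIs in 19 of 192 MSC-sEV cells (7.80 CPM) and 7 UMIs in 5 of 40 PBS cells (13.9 CPM), a ratio of 0.561 (0.235 to 1.54). These 7 were all the Il1rl1 UMIs of the PBS library.

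Il33 was the exception among the 10 genes, since retinal glia held most of it in both libraries. It had 469 UMIs in 80 MSC-sEV cells and 650 UMIs in 137 PBS cells. Müller glia-like cells, named for the radial glia that span the retina, were 82 of the MSC-sEV and 134 of the PBS cells, and held 90.8% (87.8 to 93.3) and 88.3% (85.6 to 90.7) of these UMIs. Its level in them was 356 CPM in MSC-sEV and 384 CPM in PBS, a ratio of 0.93 (0.816 to 1.05). That pooled ratio joins a pair of clusters with opposite orders and was 0.793 (0.687 to 0.916) with cells classed by their marker score and 0.604 (0.332 to 1.05) after thinning. In this class 9.31% of 10171 genes were at least 2-fold higher in MSC-sEV and 4.56% at least 2-fold lower, and of the 3 members with at least 20 UMIs, Il33, Il4ra and Stat6, 0 were past 2-fold. Il33 was seen in 58.5% of MSC-sEV (47.1 to 69.3) and 64.2% of PBS Müller glia-like cells (55.4 to 72.3), at median depths of 3762 and 5212 UMIs, against 0.727% and 4.49% of rod-like cells at 2583 and 2706. At 1000 UMIs per cell, Il33 was seen in 24.2% of MSC-sEV and 26.9% of PBS Müller glia-like cells.

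Both Müller glia-like clusters carried Il33. In cluster 14, of 23 MSC-sEV and 37 PBS cells, it was seen in 22 and 37 cells, with a median of 11 (0 to 33) and 9 (1 to 89) UMIs per cell, at 590 CPM (520.4 to 667) and 811 CPM (737 to 890.5). Without the PBS cell with 89 UMIs the PBS level was 665 CPM. In cluster 6, of 59 and 97 cells, it was seen in 26 and 49 cells, at 220.3 CPM (188 to 256) and 139.7 CPM (117 to 166). Pooled Il33 CPM was thus lower in MSC-sEV in cluster 14 and higher in cluster 6, with counting intervals that did not overlap in either. In cluster 14 the lack of overlap depended on 1 PBS cell, since 665 CPM lies inside the MSC-sEV interval, though close to its upper limit. Without the cell with the most Il33 in each library, the levels were 566 CPM in MSC-sEV and 665 CPM in PBS, so MSC-sEV was still lower. No interval was taken for these levels. Medians per cell, not adjusted for depth, had the other order, at 11 and 9 in cluster 14 and 0 and 1 in cluster 6. In cluster 6 Il33 was seen in 44.1% of MSC-sEV and 50.5% of PBS cells. All 8 Müller glia markers were seen in both libraries, at a summed 9378 CPM in MSC-sEV and 9898 CPM in PBS cells of the class. Rod-like cells held 10 MSC-sEV and 51 PBS UMIs of Il33 (2.797 and 14.9 CPM), 5.33-fold lower in MSC-sEV, in a class where 15.7% of 10375 genes were at least 2-fold higher and 5.35% lower. A rod-like cluster of 48 PBS cells with no MSC-sEV cell held 27 of those 51, and without it the PBS level was 9.42 CPM. Müller glia markers in rod-like cells summed to 140 CPM in MSC-sEV and 495 CPM in PBS, and their part in the rod-like Il33 was not tested.

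**Figure D3:**
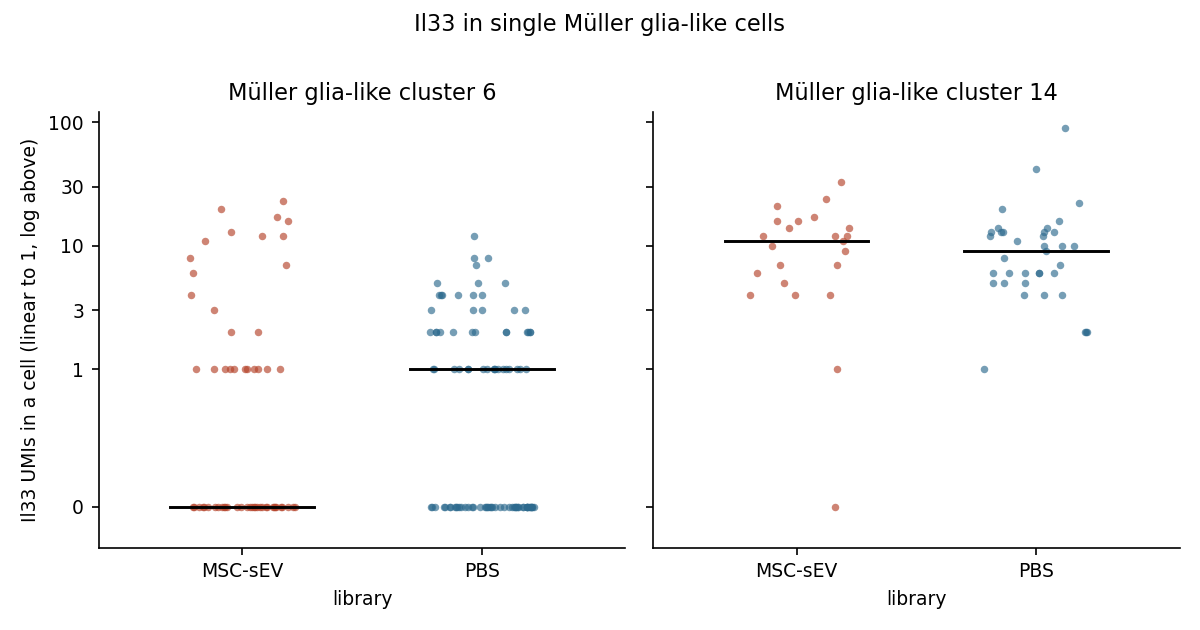
Each point is a Müller glia-like cell of cluster 6 (left) or cluster 14 (right), with the MSC-sEV library left of PBS in each panel; the y axis gives Il33 UMIs in the cell, linear up to 1 and logarithmic above, and black lines are medians. In cluster 14 the medians are 11 in MSC-sEV and 9 in PBS, and 1 PBS cell has 89 UMIs.

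The receptor chains were seen in several classes. Il4ra, the chain shared by both receptors, had 1048 UMIs in 400 MSC-sEV cells (17.2%) and 54 UMIs in 40 PBS cells (2.98%). Microglia-like cells held 37.8% of the MSC-sEV and 51.9% of the PBS UMIs. In the MSC-sEV library its level was 129 CPM in microglia-like cells, 108 CPM in monocyte or macrophage-like cells, 85.7 CPM in T cell-like cells, 77.9 CPM in cluster 4 and 77.0 CPM in cluster 11, against 2.52 CPM in rod-like cells. Neighbours in this order had overlapping counting intervals. A UMI of Il4ra was seen in 68.2% of microglia-like (61.1 to 74.7), 64.3% of monocyte or macrophage-like and 57.0% of cluster 11 cells, against 0.817% of rod-like cells.

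Il13ra1, the chain that completes the receptor for IL-13, was at 45.2 CPM in microglia-like, 44.0 in monocyte or macrophage-like and 32.9 CPM in cluster 11 cells of the MSC-sEV library, against 13.1 CPM (8.13 to 20.1) in T cell-like and 0.559 CPM in rod-like cells. In the 61 T cell-like cells with a T cell receptor or CD3 transcript it was at 6.36 CPM (2.33 to 13.8), and in the 44 without at 22.9 CPM (12.8 to 37.8). Il2rg, the common gamma chain used by several lymphocyte cytokines, was at 113 CPM in T cell-like and 111 CPM in cluster 11 cells. It was at 73.6 CPM in monocyte or macrophage-like and 57.2 CPM in microglia-like cells, against 2.797 CPM in rod-like cells. Of the T cell-like cells, the 61 with a T cell receptor or CD3 transcript had it at 147 CPM (124 to 174). The 44 without had it at 64.2 CPM (46.3 to 86.8). Stat6, the transcription factor activated by both receptors, was at 67.2 CPM in monocyte or macrophage-like, 56.5 in microglia-like, 55.3 in cluster 11 and 53.2 CPM in T cell-like cells, with overlapping counting intervals, against 2.24 CPM in rod-like cells. Gm20489 overlaps Il2rg on the same strand, so their reads could be mixed. Cluster 8 had Stat6 at 62.4 CPM (34.9 to 103) but Il4ra at 29.1 CPM (11.7 to 60.04). Endothelial cell-like cells, 10 in MSC-sEV and 21 in PBS, had Il4ra at 16.5 and 39.7 CPM, Il13ra1 at 57.7 and 22.7 CPM and Il2rg at 74.2 and 39.7 CPM, from at most 9 UMIs each.

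**Figure D4:**
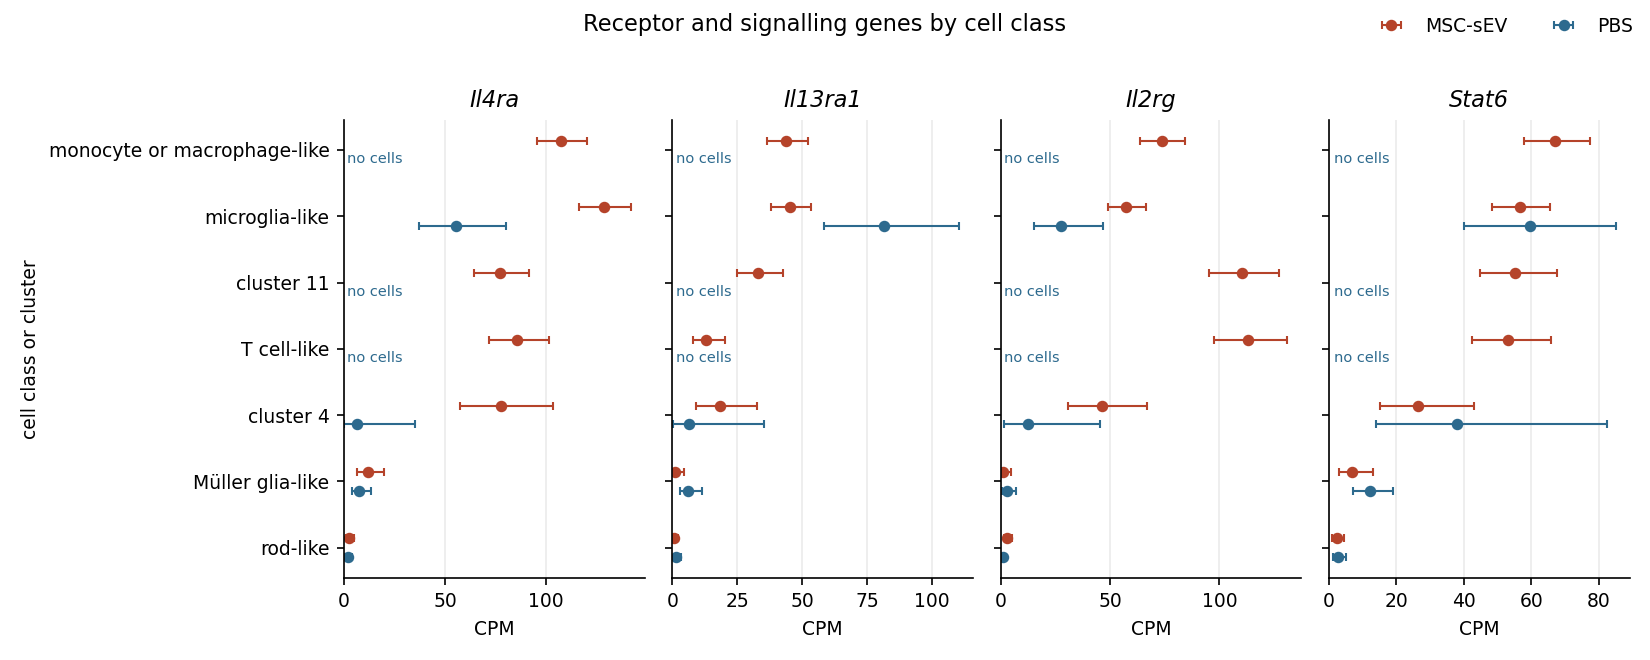
The x axis gives CPM of Il4ra, Il13ra1, Il2rg and Stat6 (panels left to right) and the y axis the cell class or cluster; points are whole classes, MSC-sEV above PBS, and bars are exact Poisson 95% intervals for counting error. In microglia-like cells Il4ra lies at 129 CPM in MSC-sEV and 55.6 CPM in PBS, and Il13ra1 at 45.2 and 81.4 CPM.

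Microglia-like cells were the only class with at least 20 UMIs of each of Il4ra, Il13ra1, Il2rg and Stat6 over both libraries and cells in both. They numbered 192 in MSC-sEV and 40 in PBS. The PBS number is under the minimum of 50 cells set for such ratios, so a minimum of 30 was used as a setting added after seeing the data. Il4ra was at 129 CPM (116 to 142) in MSC-sEV and 55.6 CPM (36.9 to 80.3) in PBS, a ratio of 2.31 (1.58 to 3.53). Il2rg was at 57.2 CPM in MSC-sEV and 27.8 CPM in PBS, a ratio of 2.06 (1.19 to 3.84). Il13ra1 went the other way, at 45.2 CPM in MSC-sEV and 81.4 CPM in PBS, a ratio of 0.555 (0.389 to 0.806). Without the 2% highest doublet scores that ratio was 0.712 (0.49 to 1.06), whose interval spans 1, and after thinning it was 0.167 (0.0331 to 0.774). The thinned ratio rests on few UMIs, seen in 2.08% of 192 MSC-sEV and 10.0% of 40 PBS cells. Of the 41 Il13ra1 UMIs in PBS before thinning, 9 were in 1 cell. Stat6 was at 56.5 and 59.6 CPM, a ratio of 0.949 (0.641 to 1.45) that crossed 1 under other settings. Of the 5 members with at least 20 UMIs, 2 were thus at least 2-fold higher in MSC-sEV and 0 at least 2-fold lower, in a class where 11% of 9555 genes were higher and 7% lower by that much. With every cell weighted equally the Il4ra ratio was 1.62, and it was 1.41 (0.49 to 5.53) after thinning to 1000 UMIs. The Il2rg ratio after thinning was 2.92 (0.444 to 123), whose interval spans 1.

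The share of microglia-like cells with a UMI was also read. Il4ra was seen in 68.2% of MSC-sEV and 50% of PBS cells (33.8 to 66.2), Il13ra1 in 40.6% and 50%, Il2rg in 41.7% (34.6 to 49.0) and 17.5% (7.34 to 32.8), and Stat6 in 47.4% and 50%. Median depths were 14577 and 9875 UMIs, against 2583 and 2706 in rod-like cells, where none of these shares was above 0.908% in MSC-sEV or 0.843% in PBS. Thinned to 1000 UMIs, Il4ra was seen in 11.5% and 10.0%, Il13ra1 in 2.08% and 10.0%, and Il2rg in 6.77% and 2.50%. Il4ra and Il13ra1 were seen in the same cell in 59 of 192 MSC-sEV cells (30.7%) and 11 of 40 PBS cells (27.5%). Markers moved with these levels. All 10 monocyte or macrophage markers were seen in MSC-sEV microglia-like cells, at a summed 1716 CPM, and 5 of 10 in PBS, at 961 CPM, with Ccr2 and Ly6c2 at 0. All 10 microglia markers were seen in both, at 9527 CPM in MSC-sEV and 19376 CPM in PBS. Their part in the receptor levels was not tested.

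Cluster 4, of 181 MSC-sEV and 69 PBS cells, had fewer UMIs. Il4ra had 47 UMIs in MSC-sEV and 1 in PBS there, a ratio of 12.4 (2.11 to 498), and Il2rg 28 and 2, a ratio of 3.68 (0.928 to 31.9). Stat6 had 16 and 6 UMIs there (26.5 and 37.8 CPM), a ratio of 0.701 (0.26 to 2.19). Of the 3 members with at least 20 UMIs, 2 were at least 2-fold higher and 0 lower, where 18.6% of 5079 genes were higher and 5.34% lower. In cluster 2 and in cone-like cells 0 members had 20 UMIs, in classes where 2.21% and 11% of genes were at least 2-fold higher and 18.3% and 2.13% lower. The median depth of cluster 4 was 2401 UMIs in MSC-sEV and 1296 in PBS cells.

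Some of the genes known to respond to IL-4 and IL-13 in macrophages were higher in MSC-sEV microglia-like cells. Of the 16 listed, 13 had at least 20 UMIs, of which 8 were at least 2-fold higher, 0 lower and 5 within 2-fold, in a class where 11% of all genes tested were higher and 7% lower, with a median log2 ratio of 1.26 beside 0.03 over all genes tested, genes at 0 in PBS being entered at the floor of 3 counts. Arg1, the arginase of alternatively activated macrophages, had 6446 UMIs in MSC-sEV and 0 in PBS, at least 352-fold higher against that floor, taken per class. The chemokine Ccl24 had 3214 UMIs in MSC-sEV and 1 in PBS, a ratio of 526 (94.3 to 20777). Retnla and Chil3, secreted proteins of such macrophages, had 189 and 124 UMIs in MSC-sEV and 0 in PBS, at least 10.3-fold and 6.76-fold higher. In the MSC-sEV library, monocyte or macrophage-like cells held Arg1 at 4767 CPM, Chil3 at 4434 CPM, Retnla at 3028 CPM and Ccl24 at 2764 CPM. Such calls were also made in classes without macrophage names, with 5 of 7 response genes tested at least 2-fold higher and 1 lower in rod-like cells, where 15.7% of all genes were higher and 5.35% lower, and 4 of 4 higher in Müller glia-like cells, where 9.31% were higher and 4.56% lower. The part of free RNA or of the monocyte or macrophage markers above in the microglia-like values was not tested.

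Signal transducers and inhibitors of the pathway were detected in microglia-like cells of both libraries. All 14 had at least 20 UMIs, and 6 were at least 2-fold higher and 0 lower in MSC-sEV, beside 11% and 7% of all genes tested, with a median log2 ratio of 0.79. Cish and Socs1, feedback inhibitors of cytokine signalling, had ratios of 26.3 (4.66 to 1047, from 161 and 1 UMIs) and 11.5 (4.89 to 35.7). Stat3, the transducer of IL-6 and IL-10 among others, was at 135 CPM in MSC-sEV and 49.6 CPM in PBS. The kinase Jak1, which serves both receptors, was at 182 and 155 CPM, a ratio of 1.17 (0.924 to 1.51), and Socs3 at 449 and 445 CPM. Of the 12 other receptors, 4 could be compared, and 2 were at least 2-fold higher and 0 lower, beside the same 11% and 7%. Csf2rb, the beta chain shared by the receptors of IL-3, IL-5 and GM-CSF, was at 207 and 73.5 CPM, and Csf2rb2, its relative in the mouse, at 53.0 and 13.9 CPM. These genes have near-identical sequences, so reads could be split between them. Crlf2, part of the receptor of the alarmin TSLP, was at 48.4 and 91.3 CPM. Of the 13 regulators of type 2 lymphocytes, 7 could be compared, and 3 were at least 2-fold higher and 2 lower, beside those shares. The transcription factors Nfil3 and Bhlhe40 were higher in MSC-sEV, with ratios of 8.87 (3.75 to 27.5) and 5.63 (2.37 to 17.6). Maf, a transcription factor of T cells and macrophages, was at 167 CPM in MSC-sEV and 441 CPM in PBS, 2.64-fold lower, and the GATA cofactor Zfpm1 at 8.77 and 33.8 CPM, 3.85-fold lower. Of the 6 neighbours of Il4 at its locus, 4 could be compared and 2 were at least 2-fold higher and 0 lower, beside the same 11% and 7%.

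Other cytokines were sparse. Of the 8 other type 2 cytokines and alarmins, Il3, Il9, Il25 and Il31 had 0 UMIs in both libraries. Il10, which dampens inflammation, had 41 UMIs in 7 MSC-sEV cells, 39 of them in T cell-like cells. Areg, a growth factor of tissue repair, had 19 UMIs, Tslp, an epithelial alarmin, 16, and Csf2 (GM-CSF) 5, each with 0 in PBS. For Tslp, 15 of the 16 UMIs were in monocyte or macrophage-like cells. Of the 9 type 1 and type 17 genes, Ifng had 43 UMIs in 10 MSC-sEV cells and Il17a 25 in 8, against 0 in PBS for both, and Il21 had 0 in both. T cell-like cells held 42 of the Ifng and 21 of the Il17a UMIs.

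Over the 15 MSC-sEV clusters with at least 20 cells, the genes most like Il13 in level included Neil3, Cxcr6, Abcb1a and E2f8 (Pearson r of log2(CPM + 10) 0.96 to 0.97). Those most like Il1rl1 were Cyp11a1, Gzmb, 4932438H23Rik, Prg2 and Atp2a3 (0.95 to 0.97), and those most like Il33 were Ptn, Mlc1, Gm3764, Efemp1 and Nr2e1 (0.99). The 11979 genes compared had at least 50 UMIs in the whole MSC-sEV library, but Abcb1a had 14 in these 15 clusters. All clusters come from 1 library, so these values describe it and carry no test.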

How the data were processed

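Retinas were dissociated and CD45 bead-enriched cells were captured with the Chromium 3′ v3 kit, per the labels' protocols. The authors' deposited files hold raw UMI counts per gene and barcode, made with Cell Ranger 3.0.2 and mm10, per the submitters' processing notes. The annotation release is not given in the sources used here.

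Cells had to reach 500 UMIs and 300 genes, with no more than 15% of UMIs from mitochondrial genes, which kept 2323 of 2593 MSC-sEV and 1347 of 1676 PBS barcodes. Scrublet, run per library with 2% expected doublets, called 4 (0.172%) and 3 (0.223%), which were removed. With so few calls, doublets may remain. The analysed cells held 16554098 UMIs in MSC-sEV and 8002574 in PBS, with median mitochondrial shares of 2.59% and 5.07%. Cells were clustered with scanpy 1.11.5 and leidenalg 0.10.2 (2000 variable genes without the listed genes, 30 components, 20 neighbours, resolution 1, seed 0). A cluster was named "-like" from 31 marker lists where at least 3 markers were in 20% of its cells and 2-fold above other cells, unless another type's markers led it or it was shallow. A class had to hold 50 cells in both libraries, and a gene 20 UMIs over both, for a ratio. Levels are UMI sums per class in CPM with exact Poisson 95% intervals, shares have Clopper-Pearson intervals, and ratios have exact conditional binomial intervals (scipy 1.17.1). These cover counting error only and treat UMIs as independent, which cells with many UMIs of 1 gene break. Thinning drew 1000 UMIs per cell and left out 336 MSC-sEV and 328 PBS cells. The interval and ratio steps were tested on simulated data.

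The 10 members and the pathway lists were chosen with earlier results of these data known. The genes named were all members, up to 4 of a list with the most UMIs and up to 2 past 2-fold in each direction with the largest ratio, and genes at 0 in both libraries. For Il13, Il33 and Il1rl1 the 5 most alike genes were taken, of which 1 is not reported here. Gene positions are from GENCODE M21 (30934 of 31053 gene identifiers matched) and promoters from RefSeq (10 of 10 members matched). Alternatives tried were other cell filters, doublet settings, resolutions, variable genes, classes by marker score, CPM denominators, equal cell weights and thinning.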

Additional observations from a re-analysis of the deposited data

How the results depend on the processing

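Recomputed under these alternatives, 109 values of the main results stayed within the counting interval of the reported value and 19 left it. Of the values of other results, 154 stayed and 26 left it. Of those that stayed, 39 and 100 were identical to the reported value, many because the setting cannot move them, so these counts say little about stability. Thinning to 1000 UMIs moved the Il4ra ratio in microglia-like cells to 1.41, the Il13ra1 ratio to 0.167 and the Il33 ratio in Müller glia-like cells to 0.604. It moved the share of Il13 UMIs in T cell-like cells to 76.9%, of Il4 UMIs to 0% there and 85.7% in cluster 8, of Il1rl1 UMIs in cluster 8 to 66.0%, of Il33 UMIs in Müller glia-like cells to 66.7% in MSC-sEV and 78.1% in PBS, and of MSC-sEV cells with a cytokine UMI to 1.11%. Classing each cell by its marker score moved the Il33 ratio to 0.793 and the T cell-like share of Gata3 to 71.8%. The Müller glia-like share of Il33 moved to 76.3% in MSC-sEV and 64.8% in PBS. Eosinophil-like cells, counted under that setting in place of cluster 8, held 19.7% of Il4 and 11.5% of Il1rl1. Without the 2% highest doublet scores, cells were clustered again, and the cluster with the highest Ccr3 level held 38.4% of Il1rl1. Without the 3 cells with the most Il13, added after seeing the data, T cell-like cells held 56% of Il13 and 26% of Il4. The Stat6 ratio in microglia-like cells, whose interval spans 1, was 1.01 without the highest doublet scores, 1.28 by marker score and 1.15 after thinning, against 0.949 as reported. Thinning leaves fewer UMIs by construction, and classing by marker score changes which cells are counted. The cause of the other moves was not tested. No paired analysis was possible because each group is 1 library. Depth limits Il5, with 15 UMIs in all, and cells with 1 UMI, which were 28 of 40 for Il4.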
